A study of Mus musculus with 12 samples.

Results

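The genes described here encode the translation initiation factors (Eif1 to Eif6) and elongation factors (Eef1 and Eef2) of the mouse cytosol, together with the kinases and binding proteins that carry an Eif or Eef name and act on them. They were chosen by gene name among the protein-coding genes of the table, leaving out Eif2s3y and Eif2ak2, which gave 61 of 35275 genes, 53 with an Eif name and 8 with an Eef name. RNA was sequenced from kidney tissue samples of 6-month-old mice on the C57BL/6J background, 4 mice in each of 3 groups. WT mice carried no engineered allele. RC/RC mice were homozygous for the RC allele of Pkd1, a knock-in missense allele that lowers polycystin-1 function in every cell and gives slowly growing renal cysts. RC/RC:Casp1KO mice carried the same Pkd1 genotype and were homozygous for a deletion of 28 base pairs at exon 6 of Casp1, made with TALEN nucleases and kept as a single line (Del3); Casp1 encodes caspase-1, the protease that the inflammasome activates. Each group held 2 males and 2 females according to the labels. Columns of the table can be tied to a group but carry neither sex nor replicate number, so the mice are numbered 1 to 4 within a group only as names.

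Translation of most mRNAs begins when eIF2 brings the initiator tRNA to the small ribosomal subunit, where eIF1, eIF1A and the many-subunit eIF3 are bound, and when eIF4E, eIF4G and eIF4A bring in the capped mRNA. After the start codon is found, eIF5 and eIF5B release the factors and join the large subunit, and eEF1A and eEF2 then drive each round of elongation. Initiation is slowed in known ways, by kinases that phosphorylate eIF2, by 4E-BP proteins that hold eIF4E, and, in elongation, by the kinase of eEF2. Cyst epithelium in polycystic kidneys is known for raised mTORC1 and MYC activity, both of which act on this machinery.

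The libraries held between 18019819 and 24869454 counts on genes. Levels are given as CPM, counts scaled to a common library size after TMM normalization of the 12 libraries, and 1 count in a library is worth little: 3 counts correspond to 0.115 to 0.166 CPM. Levels of different genes are compared as FPKM, which divides by gene length. Mice of a group did not all lie at equal distance. In WT the chi-square per degree of freedom between the counts of 2 libraries was 17.7 for mice 1 and 2 and 16.4 for mice 3 and 4, and 89.8 to 127 for the other 4 pairs. In RC/RC:Casp1KO it was 15.7 for mice 1 and 2 and 31.8 for mice 3 and 4, and 67.1 to 93.4 for the others. In RC/RC it was 37.2 for mice 3 and 4 and 67.6 to 128 for the other 5 pairs. The fits hold no term for this split, and the part of sex, which the columns do not give, was not tested. Kidney markers were present in every group, with summed means of 10615 CPM for 6 proximal tubule genes in WT, 6782 CPM for 4 genes of the loop and distal tubule and 441 CPM for 4 podocyte genes, while 6 genes of muscle and brain summed to 1.79 CPM. Casp1 itself was at 1.29 to 2.05 CPM in WT, 2.62 to 4.24 CPM in RC/RC and 0.382 to 1.06 CPM in RC/RC:Casp1KO, so its groups did not overlap (RC/RC:Casp1KO against RC/RC, log2 fold change -2.35, adjusted p = 0.00514). The deletion takes a small piece of the exon with its splice donor, so these counts show a lower level of Casp1 mRNA and not the deletion itself. Pkd1, whose RC allele differs by a missense change, was at 40.2 to 67.6 CPM in WT and 46.5 to 67.4 CPM in RC/RC, which gives no check of that label.

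Promoter sequences are shown here because MYC, which binds the E-box CACGTG, is known to act on several genes of this machinery, and because CCGGAAG, the core bound by ETS and GABP factors, is common in promoters of broadly expressed genes. RefSeq windows on GRCm38.p6, the build of the table, running from 250 bases before to 50 bases after a transcription start, were found for 47 of the 61 genes. CACGTG, searched on both strands (it is its own reverse complement), lay in a window of 12 of these 47 genes (25.5%), beside 8.09% of the 27025 genes with a window. Here and below, a gene counted if any of its windows matched. The 27025 genes were not selected by gene type or by expression in kidney, so these shares do not compare like with like. In the following sites the capitals mark the E-box, and each sequence reads 5′ to 3′ on the strand of the gene.
Eif3k, chr7:28981910-28981949, minus strand, 44 bases before the start: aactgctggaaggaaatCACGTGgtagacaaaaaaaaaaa
Eif3f, chr7:108934330-108934369, plus strand, 68 bases before the start: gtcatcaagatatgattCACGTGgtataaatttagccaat
Eif4a1, chr11:69672590-69672629, minus strand, 189 bases before the start: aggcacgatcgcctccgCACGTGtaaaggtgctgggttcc
Eef2, chr10:81176571-81176610, plus strand, 43 bases before the start: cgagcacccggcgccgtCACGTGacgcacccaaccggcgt
Eif1b, chr9:120492565-120492604, plus strand, 24 bases before the start: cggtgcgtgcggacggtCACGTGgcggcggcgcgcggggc

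CCGGAAG, searched on both strands (its reverse complement is CTTCCGG), lay in a window of 17 of the 47 genes (36.2%), beside 9.93% of all genes with a window. The next sites belong to the 4 of the 17 that were called lower in RC/RC:Casp1KO than in RC/RC, and the capitals mark the motif in the orientation it has on the gene's strand.
Eif3d, chr15:77970871-77970911, minus strand, 70 bases before the start: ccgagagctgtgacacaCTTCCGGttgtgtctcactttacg
Eif3g, chr9:20898611-20898651, minus strand, 44 bases before the start: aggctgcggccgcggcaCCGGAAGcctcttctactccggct
Eif3m, chr2:105017059-105017099, minus strand, 55 bases before the start: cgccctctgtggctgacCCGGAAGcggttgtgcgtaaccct
Eef1b2, chr1:63176821-63176849, plus strand, from the base after the start: ctgcagttccgCCGGAAGtagccgaggcc
Of the 8 genes called lower in that comparison that had a window, 1 held CACGTG (Eif3k) and 4 held CCGGAAG, against 11 and 13 of the other 39. TOP mRNAs, which mTORC1 controls, begin with a pyrimidine tract. Annotated starts were searched for a run of at least 10 C or T bases within 5 bases. Such a run was found in 7 of the 47 genes (14.9%), in 5.98% of all genes with a window and in none of those 8. Shorter runs were not sought. Eef1b2, which is among those 8 and on the TOP list used below, had no such run, so this search cannot show which mRNAs carry a TOP tract. The runs of 2 genes on the TOP list used below are shown in capitals. They begin 5 bases (Eef1a1) and 4 bases (Eif3f) before the annotated start. Whether either run is transcribed as the TOP tract of its mRNA was not tested.
Eef1a1, chr9:78481710-78481739, minus strand: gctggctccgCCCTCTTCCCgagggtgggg
Eif3f, chr7:108934403-108934432, plus strand: gttctaggCTCTCTCTCTTTCTCggcaaga
The motifs and the windows shown were chosen with the expression values known, and a match is a run of letters, not a measured binding site.

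The levels of the set spanned several orders of magnitude. Eef1a1, the factor that carries aminoacyl-tRNA to the ribosome, had the highest mean level over the 12 mice at 2515 FPKM, followed by the translocase Eef2 at 641 FPKM and by Eif5a, which helps the ribosome through difficult peptide bonds, at 263 FPKM. Among other roles the highest levels were those of Eif1 (215 FPKM), Eif4g2 (180.4 FPKM), Eef1g (141 FPKM), Eif4a2 (126 FPKM), Eif3h (116 FPKM), Eif5 (67.8 FPKM), Eif4ebp2 (49.2 FPKM), Eif2s3x (22.2 FPKM), Eif2b2 (20.5 FPKM) and Eif2ak1 (15.2 FPKM). Several paralogues were almost silent. Eef1a2, the muscle and neuron form of eEF1A, had between 0 and 0.277 CPM in single mice, Eif4e1b, an oocyte form of the cap-binding protein, had no count in any of the 12 mice, and Eif4ebp3 stayed at or under 1.34 CPM. These 3 fell below the filter on low counts in at least 1 comparison, so 58 of the 61 genes were tested in RC/RC against WT, 58 in RC/RC:Casp1KO against RC/RC and 59 in RC/RC:Casp1KO against WT. The 61 genes together took 12211 to 15032 CPM in WT mice, 14017 to 14835 CPM in RC/RC mice and 11880 to 13235 CPM in RC/RC:Casp1KO mice. Every RC/RC:Casp1KO mouse was below every RC/RC mouse, whereas WT mice lay on both sides, with WT mice 1 and 2 at 14896 and 15032 CPM and WT mice 3 and 4 at 12211 and 12366 CPM. In RNA of kidney tissue with all its cell types, a lower level can come from fewer cells of a type or from less mRNA per cell, and these cannot be told apart.

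The first comparison asked which of these mRNAs differ between cystic RC/RC kidneys and WT kidneys. A single gene, Eif1a, was higher and none was lower at an adjusted p under 0.05 (edgeR quasi-likelihood test, 8 mice, Benjamini-Hochberg over 15243 genes). Over all genes tested, 9.76% were called higher and 3.18% lower. Eif1a encodes eIF1A, which with eIF1 keeps the small subunit open while it scans for the start codon. Its level was 48.5, 49.8, 41.4 and 39.6 CPM in the 4 WT mice and 59.1, 64.4, 72.4 and 67.1 CPM in the 4 RC/RC mice. The groups did not overlap, and the level in RC/RC was 46.7% higher (log2 fold change 0.55 ± 0.11 SE, adjusted p = 0.0113). The call was made again in each of the 8 fits that left out 1 mouse (adjusted p from 0.0171 to 0.0435), but it was not made when both RC/RC mice 2 and 3 were left out (log2 fold change 0.50, adjusted p = 0.106).

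The other 57 genes tested did not pass in RC/RC against WT by edgeR, while DESeq2 called Eif1a, Eef2k and Eif4ebp1 higher and Eif5 and Eif4ebp3 lower. Of all genes, DESeq2 called 1997 higher and 1021 lower (5.59% lower). At an unadjusted p under 0.05, 8 of 58 were higher (13.8%, beside 17.3% of all genes) and 4 were lower (6.90%, beside 12%), and the median log2 fold change of the members was 0.08, beside -0.02 for all genes tested. By library size alone the median was 0.18, beside 0.08 for all genes. With a gene length trend removed its sign turned (-0.03), while the median of all genes moved to -0.12. Eef2k, the kinase that inhibits eEF2, was at 9.49, 8.38, 7.90 and 6.88 CPM in WT and at 13.1, 15.4, 10.1 and 10.3 CPM in RC/RC. Its groups did not overlap (log2 fold change 0.58 ± 0.18 SE), and its adjusted p was 0.0616. Eif4ebp1, the 4E-BP that holds eIF4E when mTORC1 is low, was at 18.3, 17.01, 13.9 and 10.4 CPM in WT and at 22.5, 46.1, 24.6 and 15.96 CPM in RC/RC. RC/RC mouse 2 had the highest value and RC/RC mouse 4 fell inside the WT range (log2 fold change 0.87 ± 0.31 SE, adjusted p = 0.0980). Eif6, which keeps the large ribosomal subunit from joining too early, had non-overlapping groups with a log2 fold change of 0.35 ± 0.11 SE and an adjusted p of 0.0609. Eif5, the GTPase activator of eIF2, was at 310.1, 323, 306 and 316 CPM in WT and at 227, 219, 238 and 286 CPM in RC/RC. It was lower in every RC/RC mouse than in any WT mouse (log2 fold change -0.37 ± 0.12 SE, adjusted p = 0.0782). In all, 5 tested members had every RC/RC mouse above every WT mouse (12.6% of all genes did) and 2 had every RC/RC mouse below (7.05% of all genes did).

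**Figure D1:**
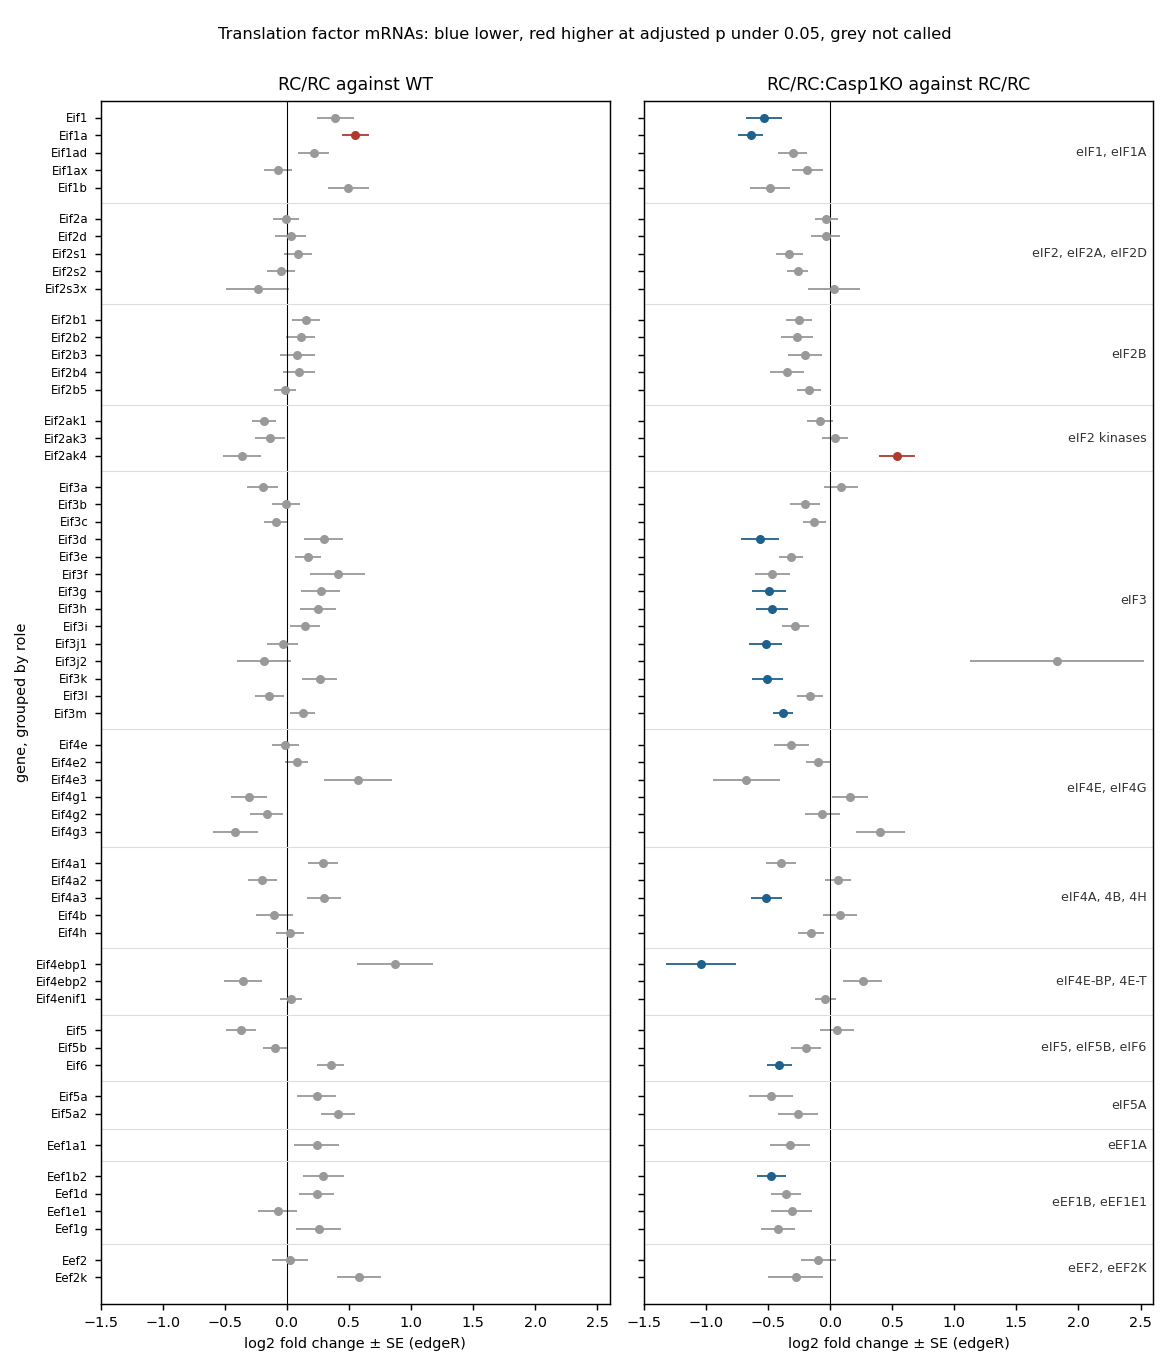
Log2 fold change with its standard error (x axis, edgeR) for the 58 translation factor genes tested in both comparisons (y axis, grouped by role). Blue and red points passed an adjusted p under 0.05: Eif1a alone in RC/RC against WT, and 12 lower and 1 higher in RC/RC:Casp1KO against RC/RC.

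The second comparison asked what differs when Casp1 is deleted in kidneys that all carry the RC alleles, and it was here that calls were most frequent. Of 58 members tested, 12 (20.7%) were lower in RC/RC:Casp1KO than in RC/RC and 1 was higher, beside 4.41% of all 15428 genes called lower and 7.23% called higher. The 12 were Eif1, Eif1a, Eif3d, Eif3g, Eif3h, Eif3j1, Eif3k, Eif3m, Eif4a3, Eif4ebp1, Eif6 and Eef1b2, and the 1 higher was Eif2ak4. The levels of the 12 fell by 23.3% to 51.5%. Calls are those of edgeR unless another tool is named. DESeq2 called 19 lower (8.12% of all genes were by that tool), the same 12 with Eef1a1, Eef1g, Eif2s2, Eif3e, Eif3f, Eif4a1 and Eif5a, and 3 higher, Eif2ak4, Eif3j2 and Eif4ebp3. The log2 fold change was negative in 47 of the 58 members, with a median of -0.27 beside -0.03 for all genes. In 23 of 58 members, each RC/RC:Casp1KO mouse was below each RC/RC mouse (8.65% of all genes), and in none was each above (11.8% of all genes), and 20.4% of all genes had groups without overlap in either direction. At an unadjusted p under 0.05, 26 members were lower (44.8%, beside 16.4% of all genes) and 2 were higher (beside 15.3%).

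The number of calls changed when single libraries were left out, which also makes a group smaller. The part of the smaller group in this change was not tested. With 1 RC/RC mouse left out, 20 members were called lower without mouse 1 (8.3% of all genes were), 9 without mouse 4 (5.71%), 2 without mouse 2 (0.864%) and 1 without mouse 3 (0.411%). With 1 RC/RC:Casp1KO mouse left out, 1 was called lower without mouse 1 (0.505% of all genes), 2 (0.369%) or 3 (0.83%). Without RC/RC:Casp1KO mouse 4, 2 of 58 members were called lower while 4.42% of all genes were, so the members' share was then not above that of all genes. The calls over all genes ranged from 438 to 2789 in place of 1797. The members' median log2 fold change stayed negative, from -0.30 without RC/RC mouse 1 to -0.22 without RC/RC mouse 3. Eif1a was called lower in all 8 of these fits, Eif3m in 4, Eif3d, Eif3k, Eif4a3, Eif4ebp1, Eif6 and Eef1b2 in 2 each, and Eif1, Eif3g, Eif3h and Eif3j1 in 1 each. No member was called when RC/RC mice 2 and 3 were left out together, with 55 genes called in all, and the median log2 fold change of the members was then -0.16, with 53 of 59 negative.

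The scanning factors eIF1 and eIF1A held the call that was made most often. Eif1a fell to 45.3, 43.3, 39.7 and 41.5 CPM in the 4 RC/RC:Casp1KO mice from the 59.1 to 72.4 CPM of the RC/RC mice given above. The level fell by 35.9% (log2 fold change -0.64 ± 0.10 SE, adjusted p = 0.00783), and the RC/RC:Casp1KO mice lay within the WT range of 39.6 to 49.8 CPM. In the other fits of all 8 mice it lay between -0.63 and -0.56 and passed in each, including after removal of a gene length trend (adjusted p = 0.00944). Without both RC/RC mice 2 and 3 it did not pass (log2 fold change -0.57, adjusted p = 0.0800). Eif1, its partner in start codon selection, was at 289, 373, 403 and 322 CPM in RC/RC and at 259, 232, 259 and 215 CPM in RC/RC:Casp1KO. Every mouse of the second group was below every mouse of the first (log2 fold change -0.53 ± 0.14 SE, adjusted p = 0.0437). A stretch of 667 bases of an Emd transcript is 96.1% identical to Eif1 mRNA, and the mean count on Emd was 8.93% of that on Eif1, so a part of the Eif1 reads may have been assigned to either. The X-linked paralogue Eif1ax, which encodes nearly the same protein as Eif1a, was at 76.6, 76.5, 91.9 and 83.7 CPM in RC/RC and at 71.0, 62.2, 86.9 and 71.3 CPM in RC/RC:Casp1KO. These ranges overlapped and Eif1ax was not called. Eif1b and Eif1ad, the other 2 genes of this group, had log2 fold changes of -0.48 and -0.30 and did not pass.

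eIF3, the scaffold that binds the small subunit and recruits the mRNA, supplied 6 of the 12 lower genes from the 14 tested, beside 4.41% of all genes called lower. A further 3 (Eif3c, Eif3e and Eif3f) had every RC/RC:Casp1KO mouse below every RC/RC mouse without passing, which makes 9 of 14 beside 8.65% of all genes. Eif3k, a peripheral subunit, was at 91.3, 118, 118 and 91.8 CPM in RC/RC and at 75.01, 74.98, 80.0 and 66.7 CPM in RC/RC:Casp1KO. RC/RC mice 2 and 3 were the high ones, and the groups did not overlap (log2 fold change -0.51 ± 0.13 SE, adjusted p = 0.0354). Eif3m was at 76.2, 73.1, 78.9 and 74.5 CPM in RC/RC and at 59.99, 58.4, 59.6 and 55.6 CPM in RC/RC:Casp1KO. The 4 RC/RC mice were close to each other in this gene, and the level fell by 23.3% (log2 fold change -0.38 ± 0.08 SE, adjusted p = 0.0232). Eif3h, the eIF3 subunit with the highest level, was at 146, 181, 199.6 and 157 CPM in RC/RC and at 129, 116, 136 and 116 CPM in RC/RC:Casp1KO, again with the highest values in RC/RC mice 2 and 3 (log2 fold change -0.47 ± 0.13 SE, adjusted p = 0.0485). Eif3d, which can itself bind the cap, was at 29.5, 44.7, 44.4 and 31.9 CPM in RC/RC and at 24.8, 23.6, 28.8 and 25.01 CPM in RC/RC:Casp1KO. The lowest RC/RC mouse and the highest RC/RC:Casp1KO mouse were less than 1 CPM apart (log2 fold change -0.57 ± 0.16 SE, adjusted p = 0.0474). Eif3g was at 56.6, 84.5, 81.1 and 64.5 CPM in RC/RC and at 50.4, 49.8, 55.4 and 49.3 CPM in RC/RC:Casp1KO, with the same pair of mice high (log2 fold change -0.50 ± 0.14 SE, adjusted p = 0.0479). Of 10 other settings, Eif3g passed in 2 and Eif3h in 3, and neither passed with RLE size factors, library size alone, no mitochondrial genes, all genes of at least 1 count, limma, the length trend removed or RC/RC mice 2 and 3 left out. Eif3d passed in 4 of the 10, and failed in each of these settings except RLE size factors. The core subunits Eif3a, Eif3b and Eif3c, which form the base of the complex with Eif3g and Eif3i, were not called, at log2 fold changes of 0.09, -0.21 and -0.13. Eif3c was at 172, 167, 172 and 171 CPM in RC/RC and at 164, 153, 163 and 149 CPM in RC/RC:Casp1KO, a small step with no overlap. Whether called and uncalled subunits differ from each other was not tested.

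**Figure D2:**
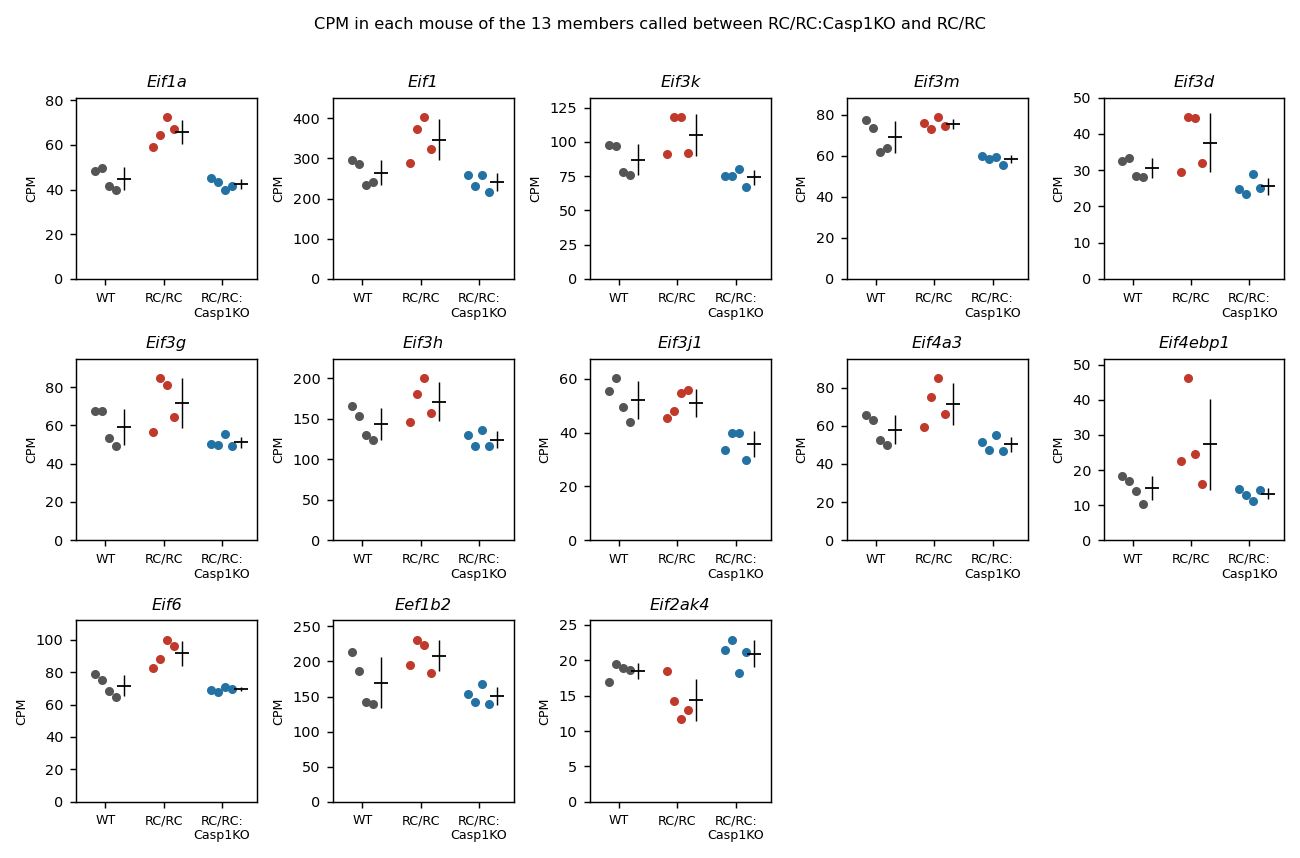
CPM (y axis, from 0) in each mouse of the 3 groups (points, in the order of the mouse numbers) for the 13 members called between RC/RC:Casp1KO and RC/RC, with the mean and SD as a bar beside each group (n = 4). All 4 RC/RC:Casp1KO mice lie below all 4 RC/RC mice in the 12 lower genes, and Eif2ak4 runs the other way with overlapping groups.

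Eif3j1 and Eif3j2 encode almost the same loosely bound eIF3 subunit, and their transcripts are 99.4% identical over 2379 bases, so reads can be split between them. Eif3j1 was at 45.5, 47.8, 54.6 and 56.0 CPM in RC/RC and at 33.6, 40.0, 39.7 and 29.9 CPM in RC/RC:Casp1KO (log2 fold change -0.52 ± 0.13 SE, adjusted p = 0.0374). Eif3j2 was at 1.40 to 2.05 CPM in the 8 WT and RC/RC mice, at 1.24 and 1.28 CPM in RC/RC:Casp1KO mice 2 and 3, and at 10.7 and 11.0 CPM in RC/RC:Casp1KO mice 1 and 4. DESeq2 called Eif3j2 higher in RC/RC:Casp1KO than in RC/RC (adjusted p = 0.0265) and edgeR did not (adjusted p = 0.112). The mice with high Eif3j2 were the ones with the lowest Eif3j1. The sum of both genes was 47.1, 49.6, 56.0 and 57.9 CPM in RC/RC and 44.4, 41.2, 40.9 and 41.0 CPM in RC/RC:Casp1KO, so the groups still did not overlap, but the step was smaller and did not pass (log2 fold change -0.34 ± 0.10 SE, adjusted p = 0.0585). Eif3j1 also overlaps Spg11 on the other strand, and whether counting used strand is not given in the sources used here.

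**Figure D3:**
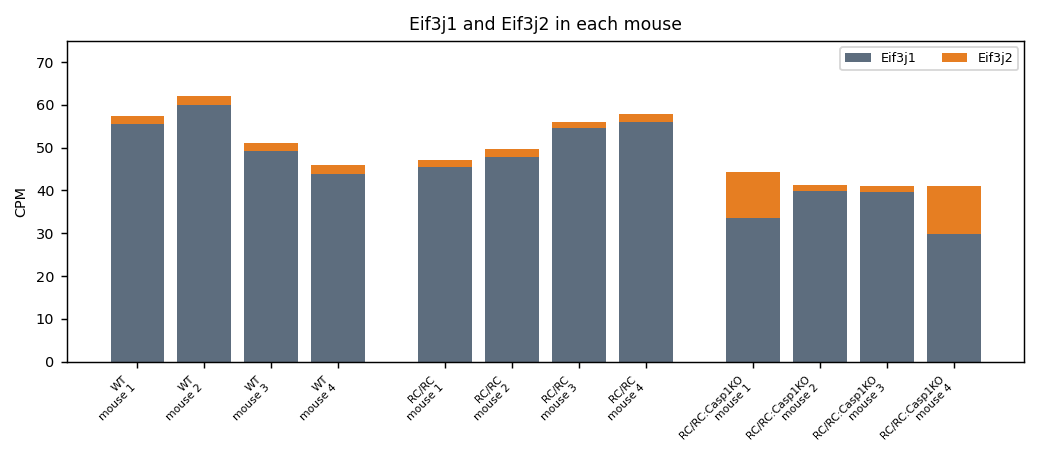
Stacked CPM of Eif3j1 (grey) and Eif3j2 (orange) in each of the 12 mice. RC/RC:Casp1KO mice 1 and 4 have 10.7 and 11.0 CPM of Eif3j2, against at most 2.05 CPM in any other mouse.

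Among the cap-binding and helicase factors, edgeR called Eif4a3 alone. It encodes a helicase of the exon junction complex rather than the eIF4A of the cap complex, and it was at 59.4, 74.9, 84.8 and 66.3 CPM in RC/RC and at 51.5, 47.1, 55.4 and 47.0 CPM in RC/RC:Casp1KO (log2 fold change -0.52 ± 0.13 SE, adjusted p = 0.0355). Eif4a1, the main eIF4A helicase, was at 263, 261, 257 and 236 CPM in WT, at 271, 309, 351 and 313 CPM in RC/RC and at 246, 222, 248 and 238 CPM in RC/RC:Casp1KO. All 4 RC/RC mice were above both other groups, but the adjusted p against RC/RC:Casp1KO was 0.0624 by edgeR (log2 fold change -0.40 ± 0.12 SE). Eif4a1 was called lower by DESeq2, by limma and with the shared dispersion, with adjusted p from 0.00870 to 0.0435. Its paralogue Eif4a2 was at 369, 405, 331 and 367 CPM in WT, at 339, 338, 306 and 299 CPM in RC/RC and at 325, 344, 340.5 and 341 CPM in RC/RC:Casp1KO. The RC/RC group was the lowest of the 3 here, without a call in any comparison. Eif4e, the cap-binding protein, was at 64.9, 69.8, 84.6 and 81.1 CPM in RC/RC and at 58.5, 54.0, 75.5 and 55.8 CPM in RC/RC:Casp1KO, with overlap. Eif4e2 stayed between 50.7 and 63.8 CPM in all 12 mice, and Eif4e3 was at 9.61 to 19.1 CPM in RC/RC and 5.71 to 11.7 CPM in RC/RC:Casp1KO. The scaffolds of the eIF4G family did not pass either. Eif4g1 was at 422, 345, 336 and 471 CPM in RC/RC and at 491, 434, 419 and 427 CPM in RC/RC:Casp1KO, and Eif4g2 was at 808 to 1043 and at 800.5 to 959 CPM. Eif4g3 was at 182, 187, 281 and 249.4 CPM in WT, at 156, 143, 173 and 203 CPM in RC/RC and at 183, 172, 285 and 260.3 CPM in RC/RC:Casp1KO. Mice 3 and 4 were above mice 1 and 2 in all 3 groups, and the log2 fold change between RC/RC:Casp1KO and RC/RC was 0.40 ± 0.19 SE (adjusted p = 0.188).

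The largest step among the lower genes was in an inhibitor. Eif4ebp1 was at 14.7, 12.9, 11.1 and 14.4 CPM in RC/RC:Casp1KO, below the 15.96 to 46.1 CPM of the RC/RC mice, and the level fell by 51.5% (log2 fold change -1.04 ± 0.28 SE, adjusted p = 0.0443). Without RC/RC mouse 2, the high one, the log2 fold change was -0.65 and the adjusted p 0.0679, and the call was made in 2 of the 8 fits that left out 1 mouse. Eif4ebp2, the 4E-BP with the higher level in kidney, was at 98.9, 101, 95.9 and 92.0 CPM in WT, at 83.8, 54.5, 72.5 and 92.3 CPM in RC/RC and at 90.7, 90.2, 91.2 and 93.9 CPM in RC/RC:Casp1KO. RC/RC mouse 2, the highest in Eif4ebp1, was the lowest in Eif4ebp2, and Eif4ebp2 was not called (log2 fold change 0.26 ± 0.15 SE, adjusted p = 0.276). Eif4ebp3 was at 0 to 0.159 CPM in RC/RC and at 0.499 to 1.34 CPM in RC/RC:Casp1KO, and it lies inside the span of Ankhd1 on the same strand, so its reads are uncertain. Its groups did not overlap. It was left out by the filter on low counts, and it was called higher by DESeq2, with a dispersion shared by the 12 mice, with all genes of at least 1 count, and in 4 of the 8 fits that left out 1 mouse (RC/RC mouse 1, 2 or 4, or RC/RC:Casp1KO mouse 3). In RC/RC against WT, where its groups overlapped, DESeq2 and the shared dispersion called it lower.

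Of the eIF2 kinases, Eif2ak4, which encodes GCN2, the sensor of uncharged tRNA, was the member called higher by edgeR. It was at 16.9, 19.5, 18.9 and 18.6 CPM in WT, at 18.5, 14.3, 11.7 and 12.96 CPM in RC/RC and at 21.5, 22.9, 18.2 and 21.2 CPM in RC/RC:Casp1KO. RC/RC mouse 1 overlapped the other groups, and the level was 45.1% higher in RC/RC:Casp1KO than in RC/RC (log2 fold change 0.54 ± 0.15 SE, adjusted p = 0.0463). This call was made in 1 of the 8 fits that left out 1 mouse (without RC/RC mouse 1), with adjusted p up to 0.125. It was also lost when scaled by library size alone, without mitochondrial genes, with all genes of at least 1 count, by limma, with the length trend removed and without RC/RC mice 2 and 3. Eif2ak1 (the haem-regulated kinase) was at 59.4, 59.0, 70.5 and 67.3 CPM in RC/RC and at 63.5, 57.6, 66.0 and 56.9 CPM in RC/RC:Casp1KO. Eif2ak3 (PERK, the kinase of the endoplasmic reticulum) was at 51.8, 40.0, 40.6 and 47.8 CPM and at 48.3, 46.6, 43.3 and 48.1 CPM. Both overlapped between the groups and neither was called. None of the subunits of eIF2 or of its exchange factor eIF2B passed in this comparison by edgeR with all 8 mice, while DESeq2 called Eif2s2 lower and edgeR without RC/RC mouse 1 called Eif2s1 and Eif2b4 lower. Eif2s3x, the gamma subunit, was at 111, 117, 61.9 and 66.2 CPM in WT, at 102, 75.8, 54.3 and 69.8 CPM in RC/RC and at 94.2, 89.6, 64.2 and 61.3 CPM in RC/RC:Casp1KO. Its groups overlapped, and mice 1 and 2 were above mice 3 and 4 in all 3 groups. Eif2b2 was at 30.6, 36.7, 42.8 and 33.3 CPM in RC/RC and at 29.4, 26.3, 33.7 and 30.2 CPM in RC/RC:Casp1KO.

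In the last steps of initiation, Eif6 was lower. It was at 82.3, 87.8, 99.9 and 96.1 CPM in RC/RC and at 69.2, 67.8, 70.7 and 69.9 CPM in RC/RC:Casp1KO, whose 4 mice had an SD of 1.22 CPM (log2 fold change -0.41 ± 0.10 SE, adjusted p = 0.0319). Eif5 was at 241, 239, 290.1 and 248.8 CPM in RC/RC:Casp1KO, overlapping the RC/RC mice. Eif5a was at 409, 399.8, 345 and 346 CPM in WT, at 333, 452, 539 and 447 CPM in RC/RC and at 322, 281, 380.2 and 299.6 CPM in RC/RC:Casp1KO. Its groups overlapped through RC/RC mouse 1, and it did not pass (log2 fold change -0.48 ± 0.17 SE, adjusted p = 0.0995). Eif5a2, the scarce paralogue, was at 9.76 to 11.97 CPM in RC/RC and at 6.71 to 10.3 CPM in RC/RC:Casp1KO.

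Among 7 elongation genes tested, edgeR called Eef1b2 and DESeq2 called Eef1a1, Eef1b2 and Eef1g lower, and all 7 had negative log2 fold changes. Eef1b2, a nucleotide exchange factor of eEF1A, was at 213, 186, 142 and 139 CPM in WT, at 195, 231, 223 and 184 CPM in RC/RC and at 153, 142, 167 and 140.03 CPM in RC/RC:Casp1KO. The RC/RC:Casp1KO mice were all below the RC/RC mice and inside the WT range (log2 fold change -0.47 ± 0.12 SE, adjusted p = 0.0374). Eef1b2 passed in 5 of 10 other settings. It was lost by library size alone, with all genes of at least 1 count, with the shared dispersion, with the length trend removed and without RC/RC mice 2 and 3. The partners of Eef1b2 in the exchange complex, Eef1g (282, 357, 298 and 286 CPM in RC/RC, 242, 208, 263 and 206 CPM in RC/RC:Casp1KO) and Eef1d, had log2 fold changes of -0.42 and -0.36 with adjusted p of 0.0720 and 0.0847. Eef1a1 was at 4984, 5061, 3563 and 3681 CPM in WT, at 4995, 5176, 5263 and 4991 CPM in RC/RC and at 4293, 4047, 4366 and 3728 CPM in RC/RC:Casp1KO. The 4 RC/RC mice were close to each other and above all RC/RC:Casp1KO mice, but Eef1a1 did not pass by edgeR (log2 fold change -0.32 ± 0.16 SE, adjusted p = 0.196; by DESeq2 adjusted p = 0.0100), and WT mice 1 and 2 were as high as RC/RC mice. Eef2 was at 2075, 1906, 1981 and 2193 CPM in RC/RC and at 2073, 1857, 1957 and 1799.7 CPM in RC/RC:Casp1KO, with overlap (log2 fold change -0.10 ± 0.14 SE). Eef2k was at 9.78, 12.2, 6.43 and 12.1 CPM in RC/RC:Casp1KO, overlapping the RC/RC range. Of 9 members listed as carrying a TOP tract (Eef1a1, Eef1b2, Eef1d, Eef1g, Eef2, Eif3e, Eif3f, Eif3h and Eif4b), 2 were called lower (4.41% of all genes were) and 7 had every RC/RC:Casp1KO mouse below every RC/RC mouse (8.65% of all genes did).

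The third comparison set RC/RC:Casp1KO against WT. No member was called in either direction by edgeR, beside 2.03% of all 15346 genes called (1.13% higher and 0.893% lower). At an unadjusted p under 0.05, 13 members were lower (22.0%, beside 9.99% of all genes) and 1 was higher (beside 11.8%). DESeq2 called 2 of 59 lower, near the 3.28% of all genes it called lower. Every RC/RC:Casp1KO mouse was below every WT mouse in 9 members (6.5% of all genes) and above in 0 (7.41%). The median log2 fold change was -0.13, with 50 of 59 negative, beside 0.01 for all genes. By library size alone it was 0.0002 (29 of 59 negative, all genes 0.14), and by limma 0.0036 (27 of 59 negative, all genes 0.10). The lowest adjusted p among the named genes was that of Eif3j1 (log2 fold change -0.54, adjusted p = 0.0736). With the counts of Eif3j1 and Eif3j2 summed, the step was smaller (edgeR log2 fold change -0.37 ± 0.10 SE, adjusted p = 0.101). For Eif1a the log2 fold change was -0.07 ± 0.10 SE (adjusted p = 0.671), with opposite sign (0.06) when scaled by library size alone or fitted by limma on log2(FPKM + 1), and for Eif4ebp1 it was -0.16 ± 0.18 SE (adjusted p = 0.618). The 3 comparisons share mice in pairs, so a high RC/RC group enters the first and the second with opposite signs.

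Gene length moved with these differences. The members span 744 to 8134 bases, and across the 58 members tested the log2 fold change ran with length, with a Spearman rho of -0.54 in RC/RC against WT and 0.60 in RC/RC:Casp1KO against RC/RC (0.08 over 59 members in RC/RC:Casp1KO against WT). Over all genes tested the values were -0.19, 0.30 and 0.15. The points share the same 8 libraries, and these are descriptions across genes. In RC/RC:Casp1KO against RC/RC, the 29 members at or under the median length had a median log2 fold change of -0.38 and held 10 of the 12 lower calls, and the 29 longer ones had a median of -0.10. In each length class the members' median was below that of all genes: -0.48 beside -0.27 up to 1500 bases, -0.31 beside -0.12 up to 2500 bases, -0.21 beside -0.05 up to 3500 bases and -0.05 beside 0.11 above that. When a length trend was taken out of each library, 3 of 58 members were called lower (Eif1a, Eif3j1 and Eif3k), a share near the 4.01% of all genes called lower in that fit, and none was called higher. The median of the members was then -0.23, with 49 of 58 negative, beside -0.03 for all genes. In RC/RC against WT the same fit gave a median of -0.03 for the members, with 33 of 58 negative, beside -0.12 for all genes.

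**Figure D4:**
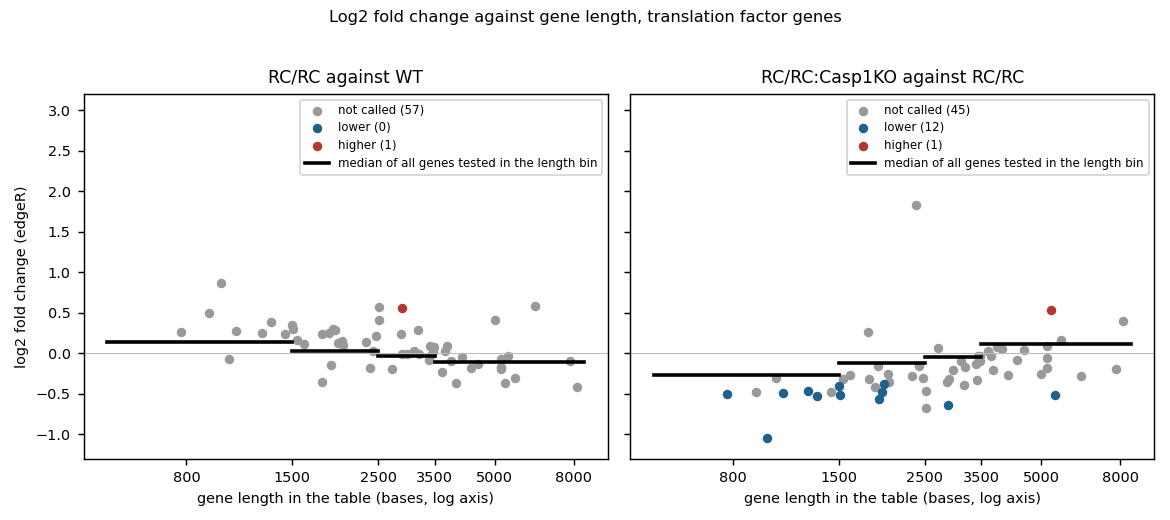
Log2 fold change (y axis, edgeR) against gene length (x axis, bases, log scale) for the members tested in 2 comparisons, with the median of all genes tested in 4 length bins as black bars. In RC/RC:Casp1KO against RC/RC, 10 of the 12 lower calls are at or under the members' median length of 2867.5 bases, and most members lie below the bar of their bin.

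The trend with length differed between libraries. The slope of a library's log2 CPM against log2 gene length, relative to the mean of all 12, was -0.134 and -0.142 in RC/RC mice 2 and 3, and 0.00497 and -0.0370 in RC/RC mice 1 and 4. It was -0.0251 to 0.0565 in RC/RC:Casp1KO and 0.00879 to 0.0860 in WT. RC/RC mice 2 and 3 also had the highest share of mitochondrial counts, 12.1% and 11.6%, against 7.78% to 10.6% in the other 10 mice. Their summed ribosomal protein mRNAs were 35790.5 and 34603 CPM, against 25017 and 25130.0 CPM in RC/RC mice 1 and 4, 18847 to 22950.0 CPM in RC/RC:Casp1KO and 18429 to 28185 CPM in WT. Ribosomal protein genes are short and carry TOP tracts. Of 84 tested, 25 were called lower in RC/RC:Casp1KO against RC/RC, beside 4.41% of all genes, and the median over the 84 was -0.55 on the log2 scale. In RC/RC against WT, 0 of 84 were called, with a median of 0.42. The part of these library differences in the calls above was not tested beyond the fits given.

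Markers of cell types moved as well. The 6 fibroblast genes, led by Col3a1, summed to a mean of 269 CPM in WT, 1263 CPM in RC/RC and 439 CPM in RC/RC:Casp1KO, and all 6 were higher in RC/RC than in WT while 5 were lower in RC/RC:Casp1KO than in RC/RC. The 6 proximal tubule genes, led by Slc34a1, summed to 10615, 6060 and 10374 CPM, with 2 lower in the first comparison and 2 higher in the second. Of 9 leukocyte genes, led by Csf1r, 7 were higher in RC/RC than in WT and none was called between RC/RC:Casp1KO and RC/RC, with sums of 100.2, 168 and 174 CPM. Csf1r alone had means of 99.8 CPM in RC/RC and 110.9 CPM in RC/RC:Casp1KO, while the median log2 fold change of the 9 between these groups was -0.44. The 5 erythroid genes, led by Hbb-bs, summed to 712, 229 and 304 CPM and were all lower in RC/RC than in WT, and 4 were lower in RC/RC:Casp1KO than in WT, where 1 of the fibroblast genes was higher. The 4 genes of the loop and distal tubule, led by Umod, summed to 6782, 4075 and 5326 CPM, with 2 lower in the first comparison, 1 higher in the second and 1 lower in RC/RC:Casp1KO against WT. Of 4 podocyte genes, led by Podxl, 1 was lower in RC/RC than in WT and none was called in the other comparisons, with sums of 441, 343 and 361 CPM. The 6 collecting duct genes, led by Aqp2, summed to 904, 1275 and 1041 CPM and the 4 endothelial genes, led by Kdr, to 310.0, 375 and 299.1 CPM, with none called in the first 2 comparisons. The part of these cell types in the levels of the translation factors was not tested.

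**Figure D5:**
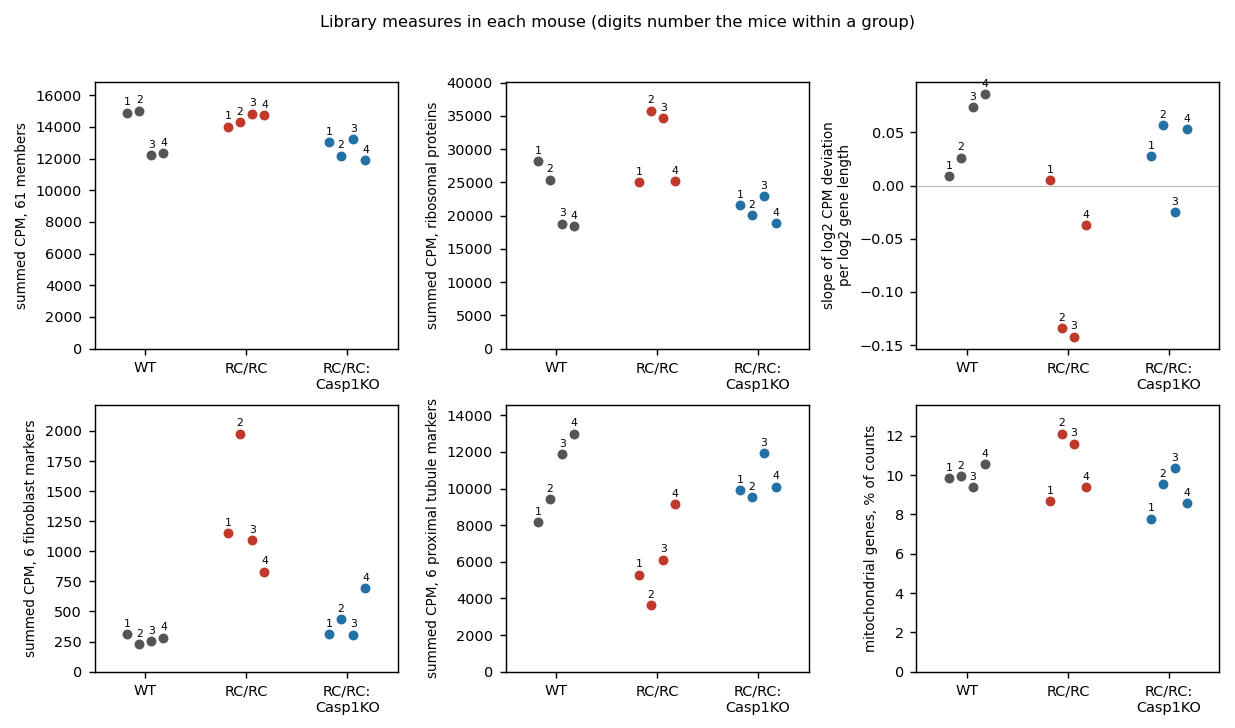
Library measures (y axes, each named with its unit) in each mouse, with digits giving the mouse number within its group. RC/RC mice 2 and 3 stand apart in the length slope, in ribosomal protein mRNAs and in the mitochondrial share, and the members' summed CPM is lower in all RC/RC:Casp1KO mice than in all RC/RC mice.

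Other genes of the pathway were called in both directions. Of all genes, 9.76% were called higher and 3.18% lower in RC/RC against WT, and 7.23% higher and 4.41% lower in RC/RC:Casp1KO against RC/RC. Myc, which drives transcription of many translation factors, was at 6.44, 7.24, 5.74 and 3.44 CPM in WT, at 12.1, 19.6, 19.6 and 11.3 CPM in RC/RC and at 7.26, 8.11, 4.49 and 6.91 CPM in RC/RC:Casp1KO. It rose in RC/RC (log2 fold change 1.45, adjusted p = 0.00899) and was lower in RC/RC:Casp1KO than in RC/RC (log2 fold change -1.23, adjusted p = 0.0191), with no overlap in either comparison, and it was the 1 of 4 genes of its family to be called. Of 14 genes of the mTORC1 and S6 kinase branch, 3 were higher in RC/RC:Casp1KO than in RC/RC: Tsc1 and Tsc2, which restrain mTORC1 (log2 fold changes 0.66 and 0.39), and Rps6kb1, its S6 kinase (0.30). Tsc2 was also lower in RC/RC than in WT (log2 fold change -0.64, adjusted p = 0.00399). Mtor was at 128, 90.9, 123 and 174 CPM in RC/RC and at 196, 169.7, 257 and 264 CPM in RC/RC:Casp1KO, with an adjusted p of 0.0520. In the integrated stress response, Atf3 and Asns of 10 genes were higher in RC/RC than in WT, and Atf3 alone was lower in RC/RC:Casp1KO (log2 fold change -1.51, adjusted p = 0.0139). Atf4, whose mRNA is translated when eIF2 is phosphorylated, was at 77.2, 132, 118 and 99.8 CPM in RC/RC and at 91.1, 71.3, 89.8 and 70.2 CPM in RC/RC:Casp1KO, and did not pass. Of 8 termination and recycling genes, Mcts1 was higher in RC/RC:Casp1KO than in RC/RC (log2 fold change 0.59), and of 20 cytosolic tRNA synthetases found in the table Eprs was higher (0.42) and Gars lower (-0.37). Guf1, 1 of 10 mitochondrial translation factors, and Secisbp2, 1 of 2 selenocysteine factors, were lower in RC/RC than in WT (log2 fold changes -0.59 and -0.47) and higher in RC/RC:Casp1KO than in RC/RC (0.70 and 0.63). None of 11 genes for other cap-binding and poly(A)-binding proteins and none of the 2 hypusine enzymes of eIF5A was called in either comparison, with 2 and 1 of them at an unadjusted p under 0.05 in RC/RC:Casp1KO against RC/RC by edgeR.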

How the data were processed

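Poly(A) RNA from 12 kidneys was sequenced in libraries primed with random hexamers. The authors deposited 1 table of raw read counts per gene with gene type, position and length. Per the labels, reads were processed with CASAVA 1.8 and STAR on mm10. The counting tool, annotation and strand setting are not given in the sources used here. The deposited FPKM columns and columns with the authors' own fold changes and p-values were not used, and 0 columns of counts lacked a group. Every pair of mice within a group differed by more than sampling noise (18 pairs). Libraries of a group carry separate replicate numbers in the labels, and p-values measure the spread between them.

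Genes were filtered with filterByExpr, scaled by TMM and tested per pair of groups in edgeR 4.0.16 (R 4.3.3), quasi-likelihood, no covariate, called at a Benjamini-Hochberg adjusted p under 0.05 over all genes tested. Alternatives were DESeq2 1.42.0, other scalings and filters, a shared dispersion, limma 3.58.1 on log2(FPKM + 1), with FPKM computed from the deposited counts and lengths, each mouse left out, and 3 added after seeing the data: a gene length trend (loess, span 0.5) taken out of each library, RC/RC mice 2 and 3 left out, and Eif3j1 and Eif3j2 summed. Near copies were sought with BLAST+ 2.17.0 (at least 95% identity over 300 bases). The tests were checked on simulated counts. The members, gene lists and motifs were chosen with earlier results of these data known. Values in every mouse, or their range, are given for up to 8 members with the smallest p among those called in each of the first 2 comparisons, the member with the highest FPKM of each role, named paralogues, the eIF2 kinases and Eef2k. Genes of other lists are named where called, up to 4 per list, plus Myc, Mtor and Atf4. Other members given by mouse (Eif1ax, Eif3c, Eif3d, Eif3g, Eif3h, Eef1g and the like) were chosen after their values were seen.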

Additional observations from a re-analysis of the deposited data

Results flagged for a closer look

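Among 59 members with at least 10 counts in some mouse, the 4 mice of each group were checked for 1 value set apart from the rest by Dixon's criterion, 177 groups of values in all. Chance alone would set apart about 1 in 20 such groups. Here 2 were found, both in RC/RC. Eif2s2, the beta subunit of eIF2, was at 75.03 CPM in RC/RC mouse 2, below 78.7 to 79.3 CPM in the other 3. Eif5a2, the scarce paralogue of Eif5a, was at 11.97 CPM in RC/RC mouse 4, above 9.76 to 9.80 CPM in the other 3.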

How the results depend on the processing

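The counts in RC/RC:Casp1KO against RC/RC depended on the setting, with a negative median of the members in those given here. With DESeq2, 3 members were higher and 19 lower (3182 genes called, 8.12% of all genes lower) in that comparison. In RC/RC against WT it gave 3 higher and 2 lower (3018, 5.59% of all genes lower), and in RC/RC:Casp1KO against WT 2 lower (1390, 3.28% of all genes lower). Scaling by library size alone gave 0 higher and 4 lower (993, 1.16% of all genes lower) between RC/RC:Casp1KO and RC/RC. In RC/RC against WT it gave 4 members higher, with 1634 of all 1897 calls higher. By limma on log2(FPKM + 1), 0 were higher and 8 lower (1052, 1.4% of all genes lower) between RC/RC:Casp1KO and RC/RC. In RC/RC against WT limma gave 4 members higher, with 1467 of all 1742 calls higher. In RC/RC:Casp1KO against WT, where these settings moved the median of all genes to 0.14 and 0.10, the log2 fold change of Eif1a was 0.058 by library size alone and 0.055 by limma. A dispersion shared by the 12 mice gave 3 higher and 2 lower in RC/RC against WT (1789 of all genes higher, 5.42% lower). Between RC/RC:Casp1KO and RC/RC it gave 2 higher and 13 lower (1118 of all genes higher, 5.64% lower). In RC/RC:Casp1KO against WT it gave 1 lower (0.731% of all genes lower). Without mitochondrial genes there were 0 higher and 8 lower (3.29% of all genes lower) between RC/RC:Casp1KO and RC/RC. With all genes of at least 1 count there were 1 higher and 7 lower in that comparison (2.15% of all genes lower). A minimum of 10 counts in every mouse left 167 genes called in RC/RC:Casp1KO against WT. With the length trend removed, 0 were higher and 3 of 58 lower between RC/RC:Casp1KO and RC/RC, near the 4.01% of all genes called lower. RLE size factors gave 1 higher and 10 lower in that comparison, beside 3.92% of all genes lower. With RC/RC mice 2 and 3 left out, 0 members were higher and 0 lower (55 genes called), and 0 were higher in RC/RC against WT (492).

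With 1 mouse left out, RC/RC against WT gave 1 to 3 members higher, 0 to 1 lower and 1162 to 2440 genes called, RC/RC:Casp1KO against RC/RC gave 0 to 2 higher, 1 to 20 lower and 438 to 2789 genes, and RC/RC:Casp1KO against WT gave 0 higher, 0 to 1 lower and 108 to 547 genes. The share of all calls that were higher was 75.4%, 62.1% and 55.9% in the 3 comparisons in that order, 86.1%, 82.0% and 79.8% by library size alone, 84.2%, 79.5% and 76.1% by limma, and 58.4%, 60.3% and 39.7% without the length trend. It was 67.9% with the shared dispersion in RC/RC:Casp1KO against WT. The causes were not tested. No paired analysis was possible because the columns carry no replicate number. The split of mice 1 and 2 from mice 3 and 4 in WT and RC/RC:Casp1KO was seen in the counts and was not used as a block.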
